A study of Mus musculus with 6 samples.

Results

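Synaptotagmins and complexins set when a nerve terminal releases transmitter. Synaptotagmins are membrane proteins with a pair of C2 domains, and in several of them these domains bind calcium and trigger the fusion of vesicles that the SNARE proteins have brought to the membrane. Syt1 and Syt2 encode the fast sensors, and Syt2 is the one known for the fast, tightly timed output of parvalbumin interneurons. Complexins bind the assembled SNARE complex, hold it before release and help the fast step.

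The genes followed were Syt1, Syt2, Syt3, Syt4, Syt5, Syt7, Syt11, Cplx1, Cplx2 and Cplx3, chosen by symbol, and all 10 were found among the 23306 rows of the table. Ribosome-bound RNA came from parvalbumin neurons in frontal cortex of male C57BL6 mice, by pull-down of tagged Rpl22 (RiboTag). The mice were Tg(Palvalbumin-cre)::RPL22HA/WT, so 1 Rpl22 allele carries the tag where Cre has acted. They were wild type for Fxr1 or had a conditional knockout of Fxr1, whose protein binds RNA and belongs to the fragile X group. In the knockout the Cre driven from the parvalbumin gene both deletes Fxr1 and switches on the tag. The age of the mice is not given in the labels. The libraries analysed were wild type replicates 2 and 3 with knockout replicates 1 and 3, of 6 in the series. Nothing in the labels says that they came from separate animals, so each p-value is relative to library spread that may be technical.

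Total counts ranged from 9696126 to 10301280. Levels are given in CPM, each count scaled by the total of its library. Fxr1 was at 98.4 and 100.6 CPM in the wild type libraries, and at 17.8 and 18.7 CPM in the knockouts, so the targeted transcript was at 18.3% of its wild type level. Of the 9 parvalbumin neuron markers all were present, led by Gad1 at a mean of 4235 CPM over all libraries. Pvalb itself had a mean of 254 CPM, so the sum of the list is mostly from other genes. The 9 markers summed to 10153 and 10249 CPM in the wild type libraries, against 9812 and 9863 CPM in the knockouts. Of these 9 markers, 3 had a log2 fold change above 0. Excitatory neuron markers summed to 861 to 952 CPM, astrocyte markers to 503 to 596 CPM and oligodendrocyte markers to 261 to 371 CPM. By summed CPM knockout replicate 3 was the highest library in astrocyte and oligodendrocyte markers. The other 3 libraries were at 503 to 540.1 CPM and 261 to 289 CPM. Of those markers, Slc1a3, Gja1 and Mog were each highest in another library. Knockout replicate 3 was also the highest library in excitatory neuron and other interneuron markers, at 952 and 111 CPM. Markers of other interneurons summed to 73.0 to 111 CPM and of microglia to 12.6 to 13.6 CPM. The 4 striatal neuron markers measured summed to 23.9 and 24.2 CPM in the wild type libraries, against 33.2 and 32.1 CPM in the knockouts, and all 4 had a log2 fold change above 0. Of all these lists 0 markers passed edgeR's test between genotypes, where 4 of 12449 genes (0.0321%) passed. A count of 0 is near that background and does not show that the lists were equal between genotypes. Other neurons and glia also express some of the 10 genes, and how much of each level comes from them was not tested. In bulk RNA, fewer cells of a type and less RNA per cell cannot be told apart.

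The closest relatives share only short runs of coding sequence. The stretches below are shown because a read that fell wholly inside the capitals would match both genes. They are the coding strand of GENCODE M21 transcripts (mm10), 5′ to 3′, and the capitals mark the longest run that both coding sequences share: 26 bases for Syt1 and Syt2, 32 bases for Cplx1 and Cplx2.
Syt1, coding bases 841 to 956: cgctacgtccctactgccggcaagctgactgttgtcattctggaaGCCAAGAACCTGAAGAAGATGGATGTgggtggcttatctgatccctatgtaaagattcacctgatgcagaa
Syt2, coding bases 844 to 959: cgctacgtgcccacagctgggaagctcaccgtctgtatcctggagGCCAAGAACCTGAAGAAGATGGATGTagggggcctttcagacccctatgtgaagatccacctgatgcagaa
Cplx1, coding bases 1 to 104: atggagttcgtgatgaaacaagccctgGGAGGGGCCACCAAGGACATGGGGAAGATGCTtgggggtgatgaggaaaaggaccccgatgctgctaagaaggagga
Cplx2, coding bases 1 to 104: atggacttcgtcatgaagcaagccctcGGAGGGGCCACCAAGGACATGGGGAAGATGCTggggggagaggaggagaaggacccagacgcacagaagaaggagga

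Outside these runs the pairs differ often. Aligned over their whole coding length, Syt1 and Syt2 were 75.3% identical and Cplx1 and Cplx2 79.6% identical. Among all 24 pairs within a family, identity ranged from 50.9% to 79.6%, and no pair shared a coding run longer than 32 bases. Every 50-base window of 1 annotated transcript per gene was also searched in the transcripts of all other genes, on both strands. No window of Syt1, Syt3, Syt5 or Cplx1 occurred elsewhere, and 2 of 6830 did for Syt2. The share was 0.249% for Cplx3, 1.69% for Syt7, 4.28% for Cplx2, 6.26% for Syt11 and 10.9% for Syt4. The Syt7 transcript searched has 2116 bases against 7487 of merged exons, so most exon sequence of Syt7 was not searched. That of Syt1 has 4820 bases against 8338, so much of its exon sequence was not searched either. The transcripts searched for Syt2, Syt3, Syt5, Syt11 and Cplx3 were also shorter than their merged exons. For Syt4 and Syt7 the matching gene was in each case a noncoding gene annotated on the opposite strand, Gm26658 and Gm26859. Strand-aware counting is not stated in the labels, and counts of Syt4 and Syt7 may include reads from those genes.

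Both fast sensor genes were abundant, and neither separated the genotypes. Syt1 (mm10 chromosome 10, 108497650 to 109010982) stood at 2129 and 2181 CPM in the wild type libraries, against 2177 and 2295 CPM in the knockouts. Syt2 (chromosome 1, 134646677 to 134762593) stood at 1402 and 1443 CPM in the wild type libraries, against 1403 and 1392 CPM in the knockouts. The genotypes overlapped for both genes, with knockout replicate 3 the highest library for Syt1 and the lowest for Syt2.

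**Figure D1:**
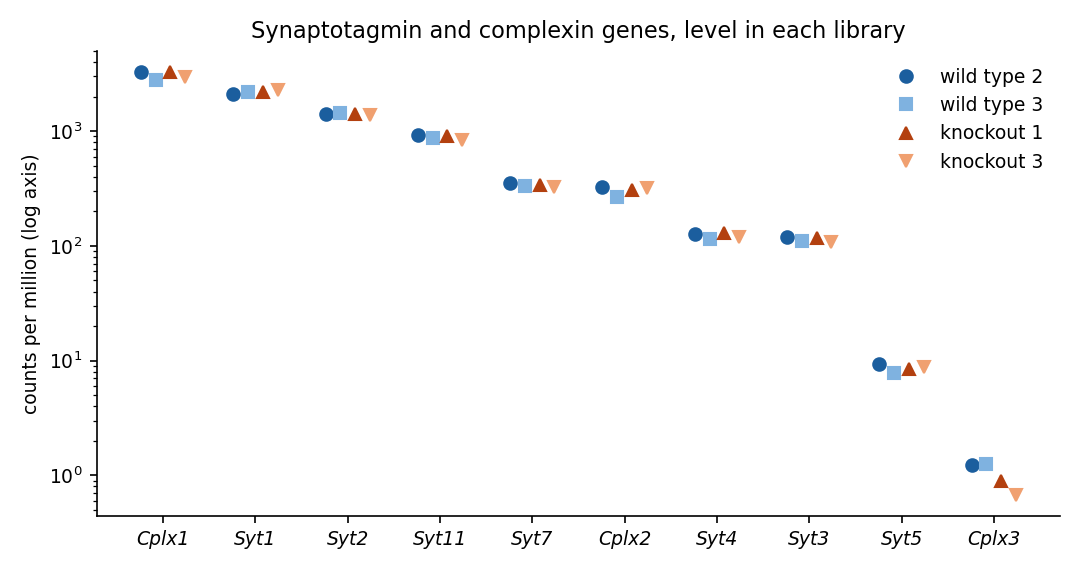
Level of each of the 10 genes in CPM (log axis) in the 4 libraries, with 1 point per library and genes ordered by mean level. Cplx1, Syt1 and Syt2 lie above 1000 CPM in every library, and Cplx3 lies near 1 CPM.

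The balance of the fast sensors was read within each library, where no scaling between libraries is needed. Syt2 made up 39.7% (95% exact binomial interval 39.2% to 40.2%) of the summed Syt1 and Syt2 counts in wild type replicate 2. It made up 39.8% (39.3% to 40.3%) in wild type replicate 3. In knockout replicate 1 the share was 39.2% (38.7% to 39.7%), and in knockout replicate 3 it was 37.8% (37.3% to 38.3%). Both knockout libraries lay below both wild type libraries, but only the interval of knockout replicate 3 was clear of the others. These intervals cover counting error only. By summed CPM knockout replicate 3 was also highest in astrocyte, oligodendrocyte, excitatory neuron and other interneuron markers, at 596, 371, 952 and 111 CPM. The part of these cells in this share was not tested.

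On the log2 scale the Syt2 to Syt1 ratio averaged −0.60 ± 0.0047 in wild type and −0.68 ± 0.061 in knockout (SD, n = 2 each). The difference of −0.08 had a two-sided exact permutation p of 0.333, the smallest that 2 libraries against 2 allow, so this test cannot separate the genotypes. It was −0.03 without knockout replicate 3 and −0.12 without knockout replicate 1. Per length of merged exons the level of Syt2 was 0.702 ± 0.0274 of that of Syt1 (SD, n = 4). That ratio depends on the length taken for each gene: it was 0.450 with the longest annotated transcript and 0.908 with the median length of the coding transcripts. Syt1 stood above Syt2 with each of these lengths.

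**Figure D2:**
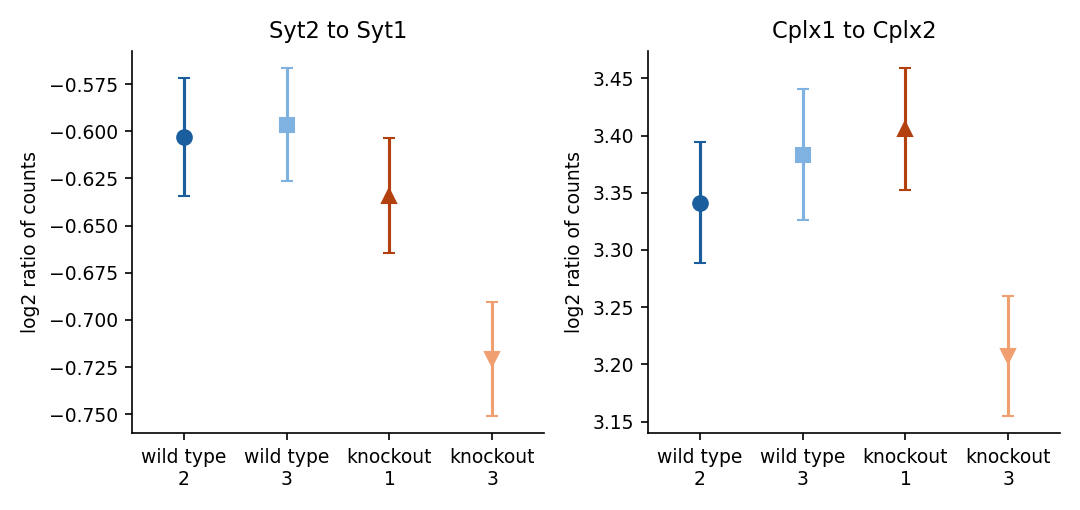
Log2 ratio of counts in each library, for Syt2 to Syt1 (left) and Cplx1 to Cplx2 (right), with 95% exact binomial intervals that cover counting error only. The vertical axes differ and do not start at 0. Knockout replicate 3 is the lowest library in both panels, at −0.72 and 3.21.

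Complexin counts were almost all from Cplx1. Cplx1 (chromosome 5, 108518554 to 108550024), which encodes the main complexin of fast inhibitory neurons, stood at 3291 and 2775 CPM in the wild type libraries, against 3275 and 2951 CPM in the knockouts. Cplx2 (chromosome 13, 54371349 to 54383917), known mainly from excitatory forebrain neurons, stood at 325 and 266 CPM in the wild type libraries, against 309 and 319.6 CPM in the knockouts. Cplx1 was lower in replicate 3 of either genotype, and for both genes the genotypes overlapped. Cplx1 made up 90.9% ± 0.514 (SD, n = 4) of the counts of the 4 complexin genes. Per length of merged exons Cplx1 was 22.7 ± 1.37 times Cplx2 (SD, n = 4), and 38.0 ± 2.28 times with the median coding transcript.

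The ratio of Cplx1 to Cplx2 counts was 10.1 and 10.4 in wild type and 10.6 and 9.24 in knockout. On the log2 scale it differed by −0.06 between knockout and wild type (exact permutation p = 1, two-sided), and by 0.04 in the other direction without knockout replicate 3. All 8 excitatory neuron markers were measured, none of them at 0 in any library. Summed, they were lowest in wild type replicate 3 at 861 CPM, the library in which Cplx2 was lowest, and 942, 900.3 and 952 CPM in wild type replicate 2, knockout replicate 1 and knockout replicate 3. The part of these cells in the level of Cplx2 was not tested.

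Cplx3 (chromosome 9, 57599992 to 57606281), a lipid-anchored complexin best known from retinal ribbon synapses, was close to the floor of the data. It had 12 and 13 counts in the wild type libraries against 9 and 7 in the knockouts, which is 1.24 and 1.26 CPM against 0.885 and 0.680 CPM. Its groups did not overlap, and it was the only one of the 10 for which that held, while 30.2% of all tested genes had groups that did not overlap. Cplx3 passed the filter on low counts through the wild type libraries alone, and its log2 fold change was −0.67 both with the filter and with none. Its 95% interval ran from −1.76 to 0.43, so the difference was not separated from 0 at this depth.

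The slower and the calcium-independent synaptotagmins did not separate the genotypes either. Syt11 (chromosome 3, 88744700 to 88775164), whose protein lacks the residues that bind calcium and is linked to vesicle retrieval, stood at 931 and 865 CPM in the wild type libraries, against 905 and 841 CPM in the knockouts. Syt4, its closest relative in sequence among the 10 at 60.8% identity, encodes a protein of dense-core vesicles. Syt4 stood at 126 and 114 CPM in the wild type libraries, against 129.5 and 121 CPM in the knockouts. Both genes were lower in replicate 3 of either genotype, and the genotypes overlapped.

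Syt7 (chromosome 19, 10389090 to 10453180) encodes the high-affinity sensor of asynchronous release and facilitation. It stood at 353 and 335 CPM in the wild type libraries, against 338 and 327 CPM in the knockouts. Syt3 (chromosome 7, 44384102 to 44400187), another high-affinity sensor, stood at 119 and 111 CPM in the wild type libraries, against 118 and 109 CPM in the knockouts. Syt5 (chromosome 7, 4539765 to 4547541), a calcium sensor of dense-core vesicles, stood at 9.39 and 7.77 CPM in the wild type libraries, against 8.46 and 8.75 CPM in the knockouts. The genotypes overlapped for all of these genes, and wild type replicates 2 and 3 lay further apart than the genotype means did for each of them.

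Levels of different genes were compared per length, as CPM per kilobase of merged exons. Cplx1 stood first at 1404 ± 115 (SD, n = 4 libraries, both genotypes), followed by Syt1 at 263 ± 8.42 and Syt2 at 185 ± 2.92. Syt11 came next at 170.1 ± 7.66, so close to Syt2 that the highest Syt11 library (179) lay just under the lowest Syt2 library (182). Cplx2 followed at 61.9 ± 5.42, Syt7 at 45.2 ± 1.41, Syt3 at 36.7 ± 1.59 and Syt4 at 31.5 ± 1.73. Syt5 stood at 3.61 ± 0.282 and Cplx3 at 0.344 ± 0.0957.

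No neighbours in this order had overlapping ranges over the 4 libraries. The order was the same with the longest transcript of each gene. With the median coding transcript, which is 1704 bases for Syt7 against 7487 of merged exons, Syt7 stood at 199 CPM per kilobase and above Cplx2. Its range then overlapped that of Syt11, and the ranges of Cplx2 and Syt3 overlapped too. The other 8 genes kept their places under these 3 lengths.

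**Figure D3:**
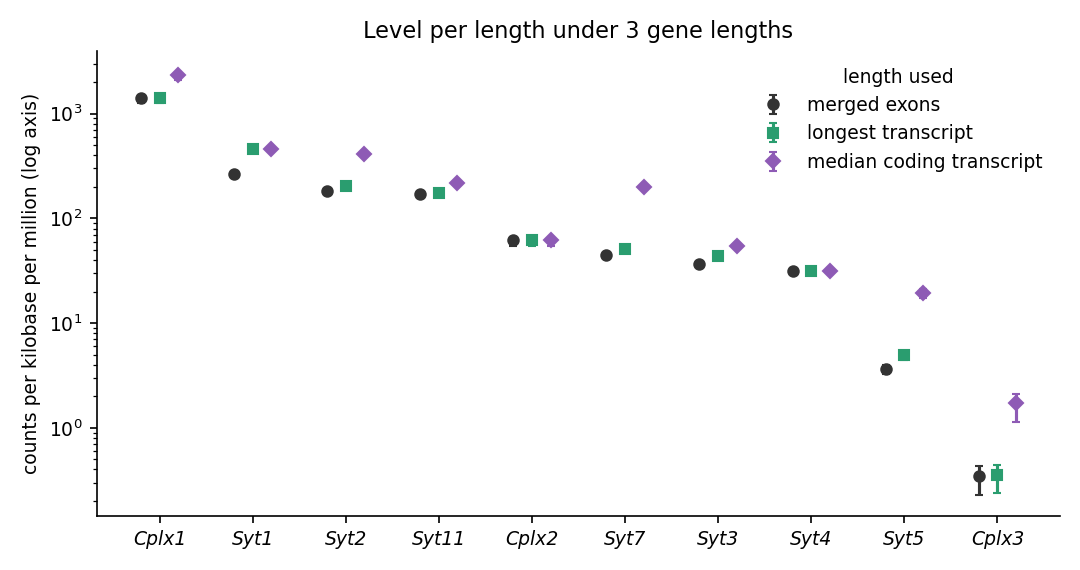
Level in CPM per kilobase (log axis) for the 10 genes under 3 lengths: merged exons, the longest annotated transcript and the median coding transcript. Points are means over 4 libraries and bars run from the lowest to the highest library. Cplx1, Syt1 and Syt2 keep the first 3 places under each length, and Syt7 moves most among the 8 genes with the highest levels.

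Taking the 17 synaptotagmin genes of the table together, the wild type libraries summed to 5389 and 5365 CPM and the knockouts to 5398 and 5407 CPM. The SD of this sum over the 4 libraries was 18.1 CPM, beside 70.2 CPM for Syt1 alone. The 4 complexin genes went the other way, with an SD of 273 CPM for their sum beside 253 CPM for Cplx1 alone. Syt1 made up 39.5% to 42.4% of the synaptotagmin counts, Syt2 25.8% to 26.9%, Syt11 15.6% to 17.3% and Syt7 6.05% to 6.54%. The shares are of counts, not of molecules, since longer transcripts give more counts.

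The comparison of the genotypes asked whether loss of Fxr1 in these neurons changed these transcripts. None of the 10 did so past the threshold: 0 of 10 had an adjusted p under 0.05 by edgeR's quasi-likelihood test over all genes, where 4 of 12449 genes (0.0321%) passed, Fxr1 among them. Each of the 10 had an adjusted p of 0.998 by edgeR. At an unadjusted p under 0.05 it was also 0 of 10, against 3.23% of all tested genes, and DESeq2 and limma voom called 0 as well. With 4 calls among all genes, a count of 0 among 10 is near the background. The log2 fold changes were above 0 for 5 genes and below 0 for 5, with a median of −0.0048, beside −0.0015 over all tested genes. One of those below 0 is Cplx3, which passed the filter on low counts through the wild type libraries alone.

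The intervals give, gene by gene, the range of changes compatible with these libraries. They rest on library spread that may be technical. They are not limits of what the adjusted threshold could detect. For Syt1 the log2 fold change was 0.05 (SE 0.06), with a 95% interval from 5.09% lower to 13.5% higher in knockout. For Syt2 it was −0.02 (SE 0.06), with an interval from 10.2% lower to 7.64% higher. Cplx1 had a log2 fold change of 0.04 (SE 0.08; 8.24% lower to 15.2% higher) and Cplx2 of 0.09 (SE 0.08; 4.90% lower to 19.4% higher). Syt7 stood at −0.05 (SE 0.07), Syt11 at −0.04 (SE 0.07), Syt3 at −0.02 (SE 0.08) and Syt4 at 0.06 (SE 0.08). Their intervals all ended within 12.2% lower and 17.2% higher. Syt5, with 80 to 91 counts per library, had the wider interval from 23.7% lower to 32.6% higher.

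**Figure D4:**
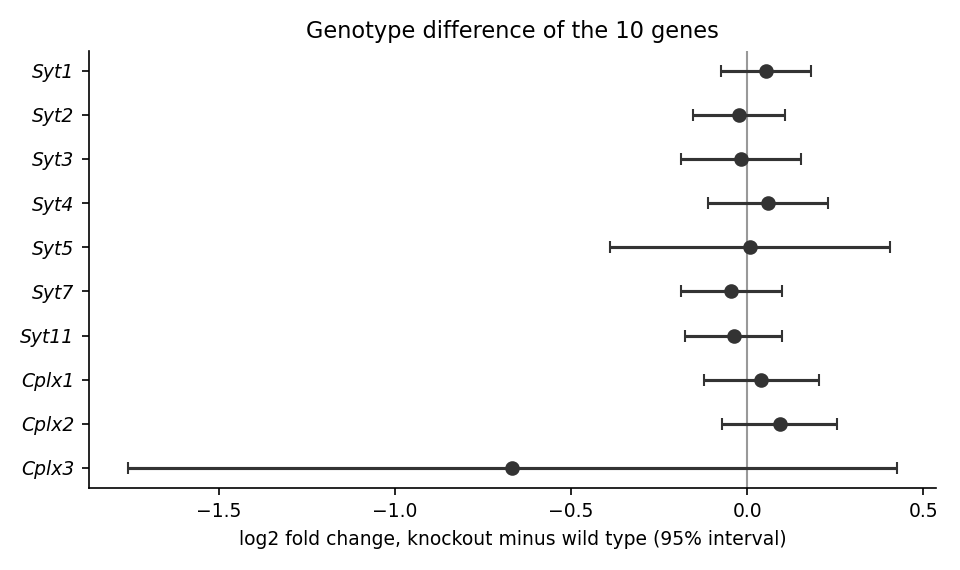
Log2 fold change of the 10 genes, knockout minus wild type, from edgeR's fit over all genes, with 95% intervals (2 libraries per genotype). All 10 intervals span 0, and the intervals of Syt5 and Cplx3, which have few counts, are the widest.

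Single libraries set the sign of most of these small values. Without wild type replicate 3 the log2 fold change of Cplx1 was −0.07, and without wild type replicate 2 it was 0.16. For Cplx2 the same fits gave −0.04 and 0.24. The sign of Syt1 and Syt7 was the same whichever library was left out, at 0.03 to 0.08 for Syt1 and −0.08 to −0.01 for Syt7. For Cplx3 the values were −0.88 to −0.48. Cplx3 passed the filter on low counts through the wild type libraries alone, so its sign is not independent of that filter. No fit without a library brought any of the 10 past the threshold. Without knockout replicate 3 the log2 fold change was 0.13 for Cplx1 and 0.08 for Cplx2.

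Relatives outside the 10 were read from a list of 15 genes: the other synaptotagmins, Cplx4, the Doc2 genes and Rph3a. Of these 12 were tested and 0 passed in either direction, with 6 above and 6 below 0 and a median log2 fold change of 0.00027. Syt13, a synaptotagmin without calcium binding, had the most counts of these, at 232 and 221 CPM in the wild type libraries, against 233 and 226 CPM in the knockouts. Rph3a, which encodes the Rab3 effector rabphilin, followed at 258 and 205 CPM against 195 and 216 CPM, and Syt12 at 39.5 and 37.9 CPM against 40.1 and 36.3 CPM. Syt9, which encodes another fast sensor in some forebrain neurons, had 0.516 and 1.16 CPM in the wild type libraries, against 0.984 and 1.56 CPM in the knockouts. Syt9 is named here after its values were seen.

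A list of 19 release partners held the SNARE genes, their assembly factors, vesicle proteins and the presynaptic calcium channels. All 19 were tested and 0 passed, with 11 above and 8 below 0 and a median log2 fold change of 0.018. Groups did not overlap for 4 of them, against 30.2% of all tested genes. Snap25, a SNARE of the plasma membrane, stood at 3128 and 2901 CPM in the wild type libraries, against 3105 and 2850 CPM in the knockouts. Nsf, the ATPase that takes SNARE complexes apart, measured 1864 and 1831 CPM against 1841 and 1731 CPM, and the vesicle protein gene Syp 1585 and 1470.1 CPM against 1576 and 1579 CPM.

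Unc13a, which encodes the priming factor Munc13-1, was the only gene of either list to pass in any fit, and is named after its values were seen. It stood at 422 and 465 CPM in the wild type libraries, against 444 and 574 CPM in the knockouts, with a log2 fold change of 0.20 (adjusted p = 0.998 by edgeR). It passed without knockout replicate 1, at 0.36 (adjusted p = 0.0116 by edgeR), in a fit where 29 of 12773 genes passed, against 4 of 12449 with all libraries. Without knockout replicate 3 its log2 fold change was 0.0165. That library was the highest for Unc13a and for the summed markers of astrocytes, oligodendrocytes, excitatory neurons and other interneurons.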

How the data were processed

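Per the labels' protocols, the 6 libraries of ribosome-bound RNA were made with a SMARTer kit for stranded total RNA. The submitters' processing notes name STAR as aligner and mm10 as genome build. Of the counting tool, annotation and strand setting, the sources used here say nothing. The authors deposited raw counts per gene, whole numbers with no normalization, in 23306 rows. Of the table's columns, 4 carried the title of a single sample. The other 2 share the title of wild type replicate 1 and were not used, which left 2 libraries of each genotype. No pair of libraries agreed within sampling noise (chi-square per degree of freedom 2.90 to 6.00).

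CPM were computed from column totals. Tests used edgeR 4.0.16 in R 4.3.3: TMM, filterByExpr (12449 genes), robust quasi-likelihood fits and Benjamini-Hochberg adjustment over all tested genes with a threshold of 0.05. The script was tested on simulated data. Ratios were tested by exact permutation over libraries. Lengths, coordinates and transcripts came from GENCODE M21 on mm10. Alternatives were DESeq2 1.42.0 (size factors, Wald test), limma 3.58.1 (voom), library totals, other filters, non-robust fits, a threshold of 0.1, other lengths and each library left out. The 10 genes and the gene lists were chosen with earlier results of these data known. All 10 genes are named. Of each list the genes past the threshold are named, or else the 3 highest in mean CPM. Exceptions are said to be chosen after their values were seen. No gene is named by likeness of pattern, because 4 libraries are too few points.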

Additional observations from a re-analysis of the deposited data

How the results depend on the processing

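All 10 genes stayed short of the threshold in every fit that tested them, with the lowest adjusted p over 12 alternatives at 0.863 (by edgeR, Cplx1). The alternatives that kept all libraries shifted their log2 fold changes by at most 0.0101, and Cplx3 was not tested at a minimum of 5 CPM in 3 libraries. Leaving out a library turned the sign of 7 genes, in 12 combinations of a gene with a library left out. Over the fits that leave out a library, the log2 fold changes ranged from −0.0506 to 0.0063 for Syt2 (turned without wild type replicate 3) and from −0.0918 to 0.0536 for Syt3 (without wild type replicate 2 or knockout replicate 3). They ranged from −0.0069 to 0.127 for Syt4 (without wild type replicate 3 or knockout replicate 1) and from −0.115 to 0.142 for Syt5 (without wild type replicate 3 or knockout replicate 3). They ranged from −0.106 to 0.0255 for Syt11 (without wild type replicate 2 or knockout replicate 3), from −0.0687 to 0.161 for Cplx1 (without wild type replicate 3 or knockout replicate 1) and from −0.0364 to 0.236 for Cplx2 (without wild type replicate 3). The Cplx1 to Cplx2 ratio difference ranged from −0.155 to 0.0434, turning without knockout replicate 3, and that of Syt2 to Syt1 from −0.12 to −0.03. The Syt2 to Syt1 ratio per length was 0.450 with the longest transcript and 0.908 with the median coding transcript, by construction of the lengths. Fxr1 passed under every alternative, from −2.47 to −2.42. Over all genes 4 passed, against 1 with library totals, 2 by DESeq2's Wald test, 13 with no filter and 9, 25, 29 and 48 without wild type replicate 2, wild type replicate 3, knockout replicate 1 and knockout replicate 3; the cause was not tested. A fit that leaves a genotype with a lone library assumes that it varies like the other genotype. No paired analysis was possible because only accession order numbers the replicates. At these depths genes of about 1 CPM, such as Cplx3, have intervals too wide to read.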

Other observations

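Wild type replicate 2 and knockout replicate 1 resembled each other in several of these genes. Both lay above wild type replicate 3 and knockout replicate 3 for Syt3, Syt4, Syt7, Syt11 and Cplx1, and both lay below them for Syt1. That is 6 of the 10 genes, beside 41.2% of all 12449 tested genes with this pattern in either direction. The labels give nothing that groups the libraries in this way. The pattern was noticed in the data and has no test.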
